A study of Mus musculus with 2 samples.

Results

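Chemokines are small secreted proteins that steer the migration of leukocytes, and their receptors are the G-protein-coupled receptors through which those cells read them. The genes described here are those of the deposited table whose symbol is Ccl, Cxcl, Ccr or Cxcr followed by a number, with Cx3cl1 and Cx3cr1 added. There were 47 of them among 24862 listed genes, 32 ligands and 15 receptors. All but Ccl28, which had 2 counts in PreASKO cells and 0 in floxed cells, reached 10 counts in at least 1 library, which left 46.

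In white fat, chemokines made by stromal cells and by resident macrophages recruit monocytes, neutrophils, eosinophils and lymphocytes. The families are named after the spacing of the first conserved cysteines of the protein: adjacent in CC chemokines, separated by a single residue in CXC chemokines, and by a longer gap in CX3CL1. Some, such as Cxcl12, are made constitutively and hold leukocytes and progenitors in place, and others, such as Ccl2, Cxcl1 or Cxcl10, are induced by inflammatory signals.

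The libraries were made from polyA RNA of GFP+ cells sorted from the stromal vascular fraction of inguinal white fat, the cell mixture that remains once adipocytes are removed after collagenase digestion. One library came from Sox9 PreASKO mice, titled KO, and the other from Sox9 floxed mice, titled WT. All animals were males 3 weeks old that had been given doxycycline on postnatal day 1. The series describes the GFP+ cells as Pref-1+, Pref-1 being the product of Dlk1, an early adipose precursor marker. What the letters PreASKO stand for and which driver deletes Sox9 are not spelled out in the labels. RNA was pooled from several mice, given as 6 without saying whether this is per genotype, so each genotype has 1 library and no difference below has a replicate check. Levels are in CPM, the count scaled to the library total, and ratios are PreASKO over floxed. The range after a ratio is its exact 95% interval. It reflects counting error alone and so compares these libraries, not the genotypes.

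The PreASKO library held 29172653 counts and the floxed library 37705236. Sox9 itself had 73 counts in PreASKO cells, or 2.50 CPM, and 228 in floxed cells, or 6.05 CPM. The precursor markers Dlk1 and Pdgfra were detected in both, Dlk1 at 24.0 CPM in PreASKO and 28.2 CPM in floxed cells. Genes of other cell types differed between the libraries alongside the chemokines. All 15 macrophage markers examined were higher in PreASKO, with ratios between 1.05 and 1.96, and together they held 2.01% of PreASKO and 1.34% of floxed counts. All 12 stromal markers were lower, with ratios between 0.275 and 0.850, and held 1.88% of PreASKO and 3.30% of floxed counts. In bulk RNA, fewer cells of a type and less RNA per cell cannot be told apart.

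Together, the chemokine and receptor genes made up 0.192% of PreASKO and 0.152% of floxed counts, a ratio of 1.26 (1.25 to 1.28). The summed ligands stood at 1721 CPM in PreASKO cells and 1339 CPM in floxed cells, a ratio of 1.29 (1.27 to 1.30). The summed receptors stood at 200.3 CPM in PreASKO cells and 183.8 CPM in floxed cells, a ratio of 1.09 (1.05 to 1.13). Of the 46 genes past the count filter, 28 were higher and 18 lower in PreASKO. Of all 18911 genes past the same filter, 8658 were higher and 10253 lower. The median log2 fold of the 46, on the log2(CPM + 1) scale, was 0.11, against -0.06 over all 18911. The differences were of modest size. On that scale 0 of 46 genes passed 2-fold in either direction, while 3.10% of all genes were past 2-fold higher, 5.94% past 2-fold lower and 9.05% past it either way.

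Without the pseudocount, 3 members were more than 2-fold higher (Ccl26, Cxcl17 and Ccr4) and 2 more than 2-fold lower (Ccr9 and Ccl20), against 9.08% and 18.2% of all genes. All 5 had fewer than 100 counts in both libraries. For 37 members at least 1 library held 100 or more counts. Of these, 0 were past 2-fold in CPM, against 3.40% of all 12982 such genes higher and 1039 of them lower, while 7 were past a ratio of 1.5 upward and 5 past it downward, against 10.7% and 17.2% of all such genes. The 7 were Cxcl9, Ccl3, Ccr8, Ccl8, Ccl24, Cxcl10 and Ccr2. The 5 were Cx3cl1, Ccl27a, Cxcl12, Ccl11 and Cxcr5. This limit of 1.5 was chosen after the values were seen. Intervals lay wholly above equal levels for 21 members and wholly below for 10, against 33.2% and 39.9% of all genes. Within the 37 better counted members these numbers were 19 and 8, against 37.2% and 39.7% of all genes with as many counts. Most genes of the table thus had intervals without equal levels, and such an interval does not set a member apart.

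**Figure D1:**
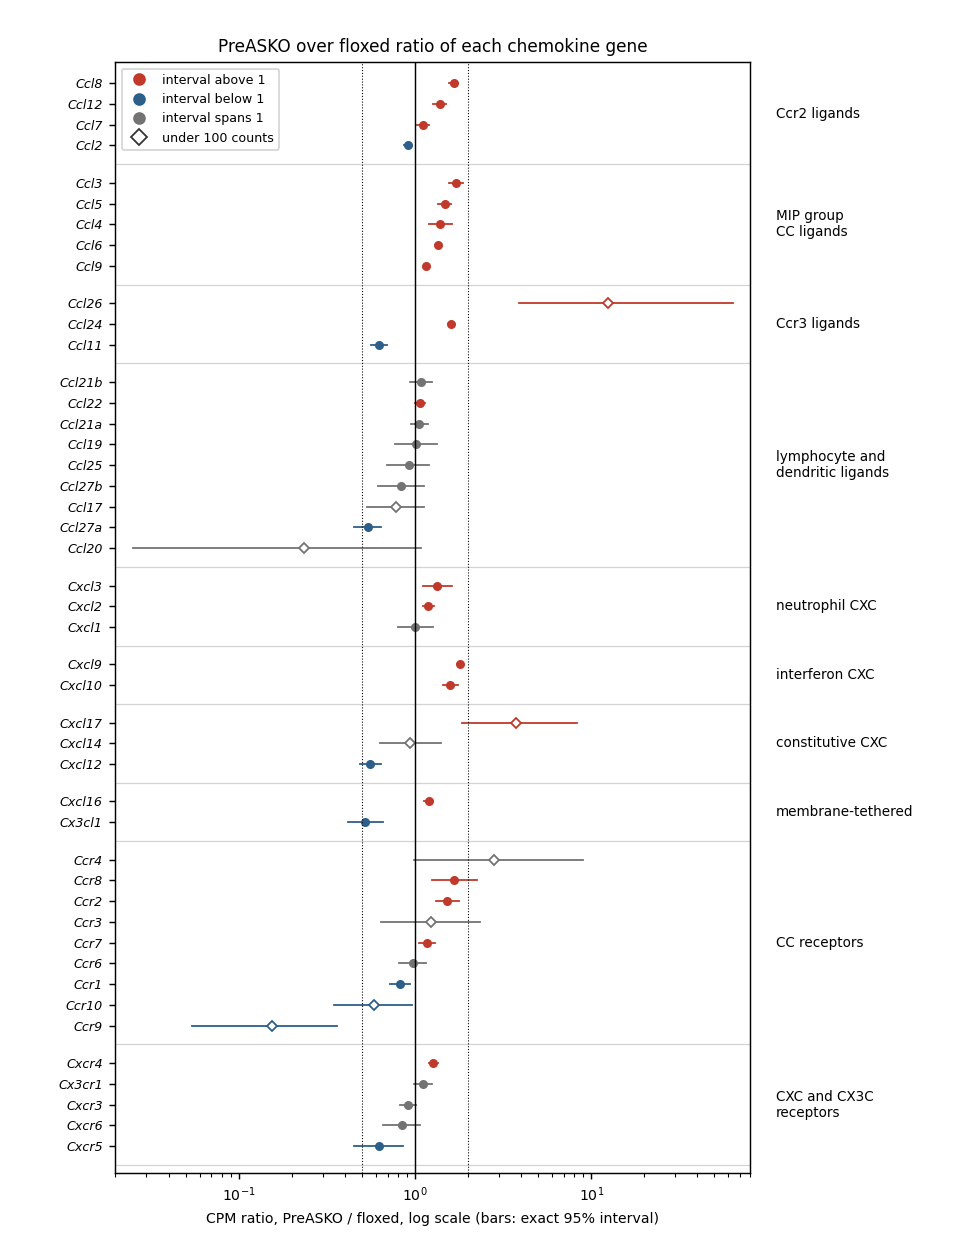
CPM ratio of 45 of the genes, PreASKO over floxed, on a log axis with exact 95% intervals, grouped by role. Solid line, equal levels. Dotted lines, 2-fold. Filled circles, with at least 100 counts in 1 library or both, all lie between the dotted lines. Open diamonds have fewer, and the 5 genes outside the lines are all diamonds.

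**Figure D2:**
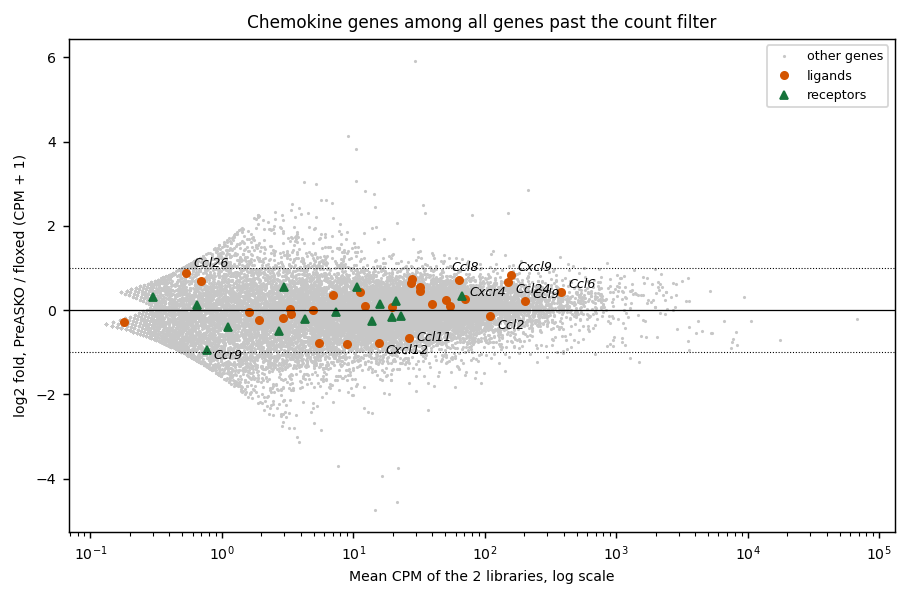
Log2 fold on the log2(CPM + 1) scale against mean CPM for all 18911 genes past the count filter (grey), with the chemokine ligands (orange circles) and receptors (green triangles) on top. Dotted lines mark 2-fold. The chemokine genes all lie between these lines, while other genes of like level lie beyond them.

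A few ligands carried most of the chemokine signal. Ccl6, a CC chemokine of myeloid cells, accounted for 25.6% of ligand counts in PreASKO and 24.4% in floxed cells. Ccl9, another myeloid CC chemokine, added 12.6% in PreASKO and 14.0% in floxed cells. Cxcl9 had 11.8% of ligand counts in PreASKO and 8.37% in floxed cells, and Ccl24 had 10.8% in PreASKO and 8.66% in floxed cells. Levels of different genes can be compared only per length, here as CPM per kilobase of annotated exon. On that scale Ccl6 was the highest ligand in both libraries, at 306 in PreASKO and 227 in floxed cells. Ccl8 stood at 156 in PreASKO and 94.1 in floxed cells, Ccl24 at 143 in PreASKO and 89.5 in floxed cells, and Ccl2 at 128 in PreASKO and 141 in floxed cells. Ccl2 was the fourth ligand in this order in PreASKO cells and the second in floxed cells. Cxcl12, with 7160 bp of annotated exon, stood at only 1.56 CPM per kilobase in PreASKO and 2.79 in floxed cells. Of the receptors, Cxcr4 was the highest at 41.7 CPM per kilobase in PreASKO and 32.8 in floxed cells, followed in both by Cxcr3, at 12.7 in PreASKO and 13.9 in floxed cells, and Ccr7, at 11.5 in PreASKO and 9.81 in floxed cells.

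**Figure D3:**
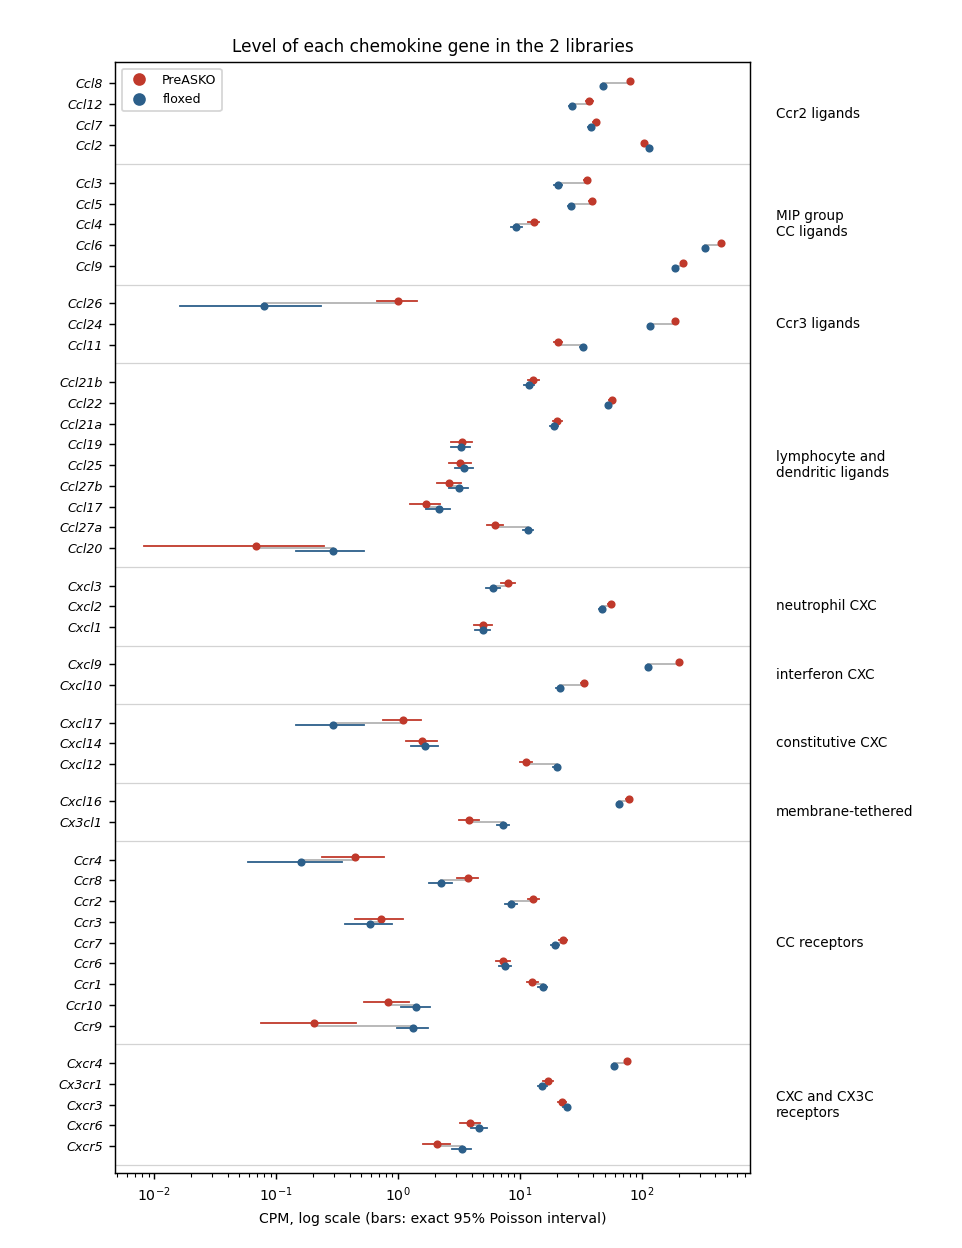
CPM of 45 of the genes in the PreASKO (red) and floxed (blue) libraries, on a log axis, with exact 95% Poisson intervals. Levels span from 0.0686 CPM for Ccl20 to 441 CPM for Ccl6, both in PreASKO cells, and most pairs of points lie close together.

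The cysteine spacing that names the families can be read in the coding sequences of members whose values are given further on. The following stretches (GENCODE M21 transcripts, GRCm38) run 5′ to 3′ and have the cysteine codons of the motif in capitals, with 15 bases on either side. They are shown for Ccl6 and Ccl24 of the CC family, Cxcl9 and Cxcl12 of the CXC family, and Cx3cl1.
Ccl6: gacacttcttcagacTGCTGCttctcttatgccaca
Ccl24: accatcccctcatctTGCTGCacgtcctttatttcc
Cxcl9: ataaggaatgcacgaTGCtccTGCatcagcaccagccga
Cxcl12: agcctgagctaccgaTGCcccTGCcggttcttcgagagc
Cx3cl1: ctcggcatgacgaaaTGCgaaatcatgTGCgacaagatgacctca
The codons are adjacent in Ccl6 and Ccl24, have 1 codon between them in Cxcl9 and Cxcl12, and have 3 between them in Cx3cl1. The families did not divide the direction of the difference. The CC members shown were higher in PreASKO, the CXC members went opposite ways and Cx3cl1 was lower.

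The CC ligands of the MIP group, several of which act through Ccr1, were higher in PreASKO in 5 of 5 cases. These chemokines attract monocytes, macrophages and effector T cells. Ccl3, known as MIP-1 alpha, had 1029 counts in PreASKO cells, or 35.3 CPM, and 776 in floxed cells, or 20.6 CPM, a ratio of 1.71 (1.56 to 1.88). Its neighbour Ccl4, MIP-1 beta, stood at 13.0 CPM in PreASKO and 9.34 CPM in floxed cells, a ratio of 1.39 (1.20 to 1.61). Ccl5, or RANTES, a product of T cells and macrophages, had a level of 38.7 CPM in PreASKO and 26.2 CPM in floxed cells, with a ratio of 1.48 (1.35 to 1.61). The group's most abundant members by counts were Ccl6 and Ccl9. Ccl6 had 12863 counts, or 441 CPM, in PreASKO cells and 12308, or 326 CPM, in floxed cells, a ratio of 1.35 (1.32 to 1.38). Ccl9 stood at 217 CPM in PreASKO and 187 CPM in floxed cells, a ratio of 1.16 (1.12 to 1.20). The group of 5 had a median log2 fold of 0.44, and the macrophage markers one of 0.50. The part of macrophage RNA in these ratios was not tested.

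The MCP monocyte attractants, grouped here as ligands of Ccr2, did not share a direction. Ccl2, the monocyte chemoattractant MCP-1, had 3040 counts in PreASKO cells, or 104 CPM, and 4324 in floxed cells, or 115 CPM, and was slightly lower with a ratio of 0.909 (0.867 to 0.952). Ccl7, MCP-3, stood at 42.1 CPM in PreASKO and 38.0 CPM in floxed cells, a ratio of 1.11 (1.03 to 1.20). Ccl12, the mouse MCP-5, stood at 37.1 CPM in PreASKO and 26.8 CPM in floxed cells, a ratio of 1.38 (1.27 to 1.51). Ccl8, MCP-2, was the furthest from equality of the 4, with 2323 counts or 79.6 CPM in PreASKO cells and 1813 counts or 48.1 CPM in floxed cells, a ratio of 1.66 (1.56 to 1.76). The intervals of Ccl2 and Ccl8 do not overlap, so within these libraries these genes differed from each other beyond counting error. In mice Ccl8 is a ligand of Ccr8, as given further on, and its use of Ccr2 was not examined.

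Among the ligands of Ccr3, the receptor of eosinophils, the eotaxins Ccl11 and Ccl24 differed in opposite directions. Ccl11 had 598 counts in PreASKO cells, or 20.5 CPM, and 1236 in floxed cells, or 32.8 CPM, a ratio of 0.625 (0.566 to 0.690). Ccl24 had 5401 counts in PreASKO cells, or 185 CPM, and 4370 in floxed cells, or 116 CPM, a ratio of 1.60 (1.53 to 1.66). In adipose tissue eotaxin-1, the product of Ccl11, is known as a stromal product and Ccl24 as a product of alternatively activated macrophages. The ratio of Ccl11 is within the range of the 12 stromal markers and that of Ccl24 within the range of the 15 macrophage markers given above. That of Ccl24 also lies within the ranges of the 9 neutrophil and the 8 endothelial markers. The part of stromal cells and of macrophages in these ratios was not tested. All counts of Ccl24 were of the repeat-distributed kind, a second column of the authors' table whose making is not documented. The same limit holds for Ccr2, Ccr9, Cxcr5, Ccl4, Ccl17, Ccl20, Cxcl14, Ccr3 and Ccr4. It also holds for all but 2 of the Cxcr4 counts in PreASKO and all but 1 in floxed cells. Repeat-distributed counts were also most of the counts in both libraries for Ccr6, Ccr7, Ccr10, Cxcr6, Cx3cr1, Cxcl12, Ccl27a and Ccl27b. Ccl26, which lies next to Ccl24, was far less abundant, with 29 counts in PreASKO cells and 3 in floxed cells. Its ratio of 12.5 (3.87 to 64.1) rests on those 3 counts. Eosinophil and mast cell markers were uneven beside these genes. Prg2, an eosinophil granule protein gene, had 49 counts in PreASKO and 5 in floxed cells, whereas Il5ra had 1 count in PreASKO and 40 in floxed cells. Ear6 had 1 count in PreASKO and 0 in floxed cells, and Ms4a2 3 in PreASKO and 0 in floxed cells, both too few to compare. The part of these cells in the eotaxin ratios was not tested.

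The CXC ligands that attract neutrophils differed little. Cxcl2 was the most abundant of the 3, with 1623 counts or 55.6 CPM in PreASKO cells and 1759 counts or 46.7 CPM in floxed cells, a ratio of 1.19 (1.11 to 1.28). For Cxcl3 the levels were 8.02 CPM in PreASKO and 5.99 CPM in floxed cells, a ratio of 1.34 (1.11 to 1.61). Cxcl1, or KC, stood at 4.97 CPM in PreASKO and 4.93 CPM in floxed cells, with an interval that includes equal levels (0.805 to 1.26). Neutrophil markers differed far more. Of 9 with enough counts, 8 were higher in PreASKO and 5 of these were past 2-fold on the log2(CPM + 1) scale. Camp, a cathelicidin gene, had 602 counts in PreASKO cells and 20 in floxed cells, and S100a9, a calgranulin gene, had 757 in PreASKO and 113 in floxed cells. All 11 listed, the 2 with fewer than 10 counts included, summed to 141 CPM in PreASKO and 63.0 CPM in floxed cells. Their part in the ligand ratios was not tested. The receptor gene Csf3r was lower, at 32.3 CPM in PreASKO and 38.9 CPM in floxed cells.

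These 3 ligand genes lie in a cluster on chromosome 5, and their promoters are shown because they share a binding motif of NF-kappaB, the inflammatory transcription factor known to induce them. The sequences are the 250 bases before the annotated start (RefSeq, GRCm38.p6), on the plus strand for Cxcl3 (chr5:90785851-90786100), Cxcl1 (chr5:90890995-90891244) and Cxcl2 (chr5:90903649-90903898), and on the minus strand for Cxcl10 (chr5:92348890-92349139), which is given for comparison. Capitals mark matches to the kappaB motif, GGG then any 2 bases then TTTCC, in the first 3 and to the interferon response element core, GAAA then any 2 bases then GAAA, in Cxcl10, each searched on both strands.
Cxcl3: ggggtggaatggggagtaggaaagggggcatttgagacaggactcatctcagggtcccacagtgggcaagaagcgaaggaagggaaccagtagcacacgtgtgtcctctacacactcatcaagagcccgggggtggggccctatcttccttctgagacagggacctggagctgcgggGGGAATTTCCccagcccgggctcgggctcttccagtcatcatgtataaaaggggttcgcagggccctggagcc
Cxcl1: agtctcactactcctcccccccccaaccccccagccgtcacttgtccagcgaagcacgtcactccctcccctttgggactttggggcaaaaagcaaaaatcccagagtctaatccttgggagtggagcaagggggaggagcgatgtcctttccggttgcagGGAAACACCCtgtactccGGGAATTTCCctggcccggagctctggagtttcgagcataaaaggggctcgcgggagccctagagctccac
Cxcl2: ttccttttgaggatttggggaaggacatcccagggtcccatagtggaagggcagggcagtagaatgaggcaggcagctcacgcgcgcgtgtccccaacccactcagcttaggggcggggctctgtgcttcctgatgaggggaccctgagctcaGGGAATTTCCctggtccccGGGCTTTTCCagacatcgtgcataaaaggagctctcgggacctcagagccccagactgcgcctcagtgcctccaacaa
Cxcl10: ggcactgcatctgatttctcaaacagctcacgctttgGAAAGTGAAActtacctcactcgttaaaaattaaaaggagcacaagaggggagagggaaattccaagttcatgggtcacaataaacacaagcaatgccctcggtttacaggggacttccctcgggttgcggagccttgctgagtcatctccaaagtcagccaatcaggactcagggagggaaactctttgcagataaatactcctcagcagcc
The match GGGAATTTCC began 73 bases before the start in Cxcl3, 71 in Cxcl1 and 97 in Cxcl2. A further kappaB match began at 89 in Cxcl1, on the other strand, and at 78 in Cxcl2. Promoters of 34 members were matched in the RefSeq table. The kappaB motif was found in 6 of them (Ccl9, Ccl20, Ccr3, Cxcl1, Cxcl2 and Cxcl3), against 1.65% of 27025 genes. The interferon core was found in 3 (Ccl19, Cxcl10 and Cxcl14), against 3.46%. A SOX core, ACAAAG, was in 5 (Ccl8, Ccl12, Ccl20, Ccr2 and Cxcr3), against 18.6%, and a MEIS core, TGACAG, in 3 (Ccl9, Ccl12 and Ccl20), against 18.0%. No match overlapped another in the promoters of the 34 members. A match describes the letters in this window only. Only the letters given above were searched for each motif. A promoter without a kappaB match, that of Cxcl10 included, may therefore hold NF-kappaB sites of other spelling. The members that hold the kappaB motif ranged in ratio from 0.235 for Ccl20 to 1.34 for Cxcl3.

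Interferon-induced ligands of Cxcr3, which attract activated T cells, were higher in PreASKO. Cxcl9 had 5899 counts or 202 CPM in PreASKO cells and 4226 counts or 112 CPM in floxed cells, and its ratio of 1.80 (1.73 to 1.88) was the furthest above equality of the 37 better counted members. Cxcl10, or IP-10, had 979 counts or 33.6 CPM in PreASKO cells and 796 counts or 21.1 CPM in floxed cells, a ratio of 1.59 (1.45 to 1.75). Their receptor gene did not follow. Cxcr3 had 641 counts in PreASKO and 909 in floxed cells, a ratio of 0.911 with an interval that includes equal levels (0.823 to 1.01).

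Ligands that guide lymphocytes and dendritic cells mostly stayed near equal levels. Ccl22, a Ccr4 ligand made by dendritic cells and macrophages, was the most abundant by counts, with 1648 or 56.5 CPM in PreASKO cells and 1988 or 52.7 CPM in floxed cells, a ratio of 1.07 with the lower end of its interval just above equal levels. The other Ccr4 ligand, Ccl17, had 49 counts in PreASKO and 81 in floxed cells, with a ratio of 0.782 (0.537 to 1.13). The Ccr7 ligands were near equal, Ccl19 at a ratio of 1.02 (0.773 to 1.34), Ccl21a at 1.06 and Ccl21b at 1.08 (0.940 to 1.24), and all 3 intervals include equal levels. Ccl19 had 97 counts in PreASKO and 123 in floxed cells. Ccl21a had 590 counts in PreASKO and 719 in floxed cells, and Ccl21b 374 in PreASKO and 447 in floxed cells. Ccl21a and Ccl21b are near-identical copies, so that the split of reads between them is uncertain. Ccl20, the ligand of Ccr6, had 2 counts in PreASKO and 11 in floxed cells, a ratio of 0.235 (0.0253 to 1.08).

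Ccl27a, a ligand of Ccr10 known from skin, was the exception among these genes. It had 182 counts or 6.24 CPM in PreASKO cells and 436 counts or 11.6 CPM in floxed cells, a ratio of 0.540 (0.451 to 0.643). The kinds of count disagreed on the size. The raw counts, 31 in PreASKO and 187 in floxed cells, gave a ratio of 0.221, and the repeat-distributed counts, 151 in PreASKO and 249 in floxed cells, one of 0.761. Ccl27a overlaps Il11ra1 on the opposite strand by 8 bp of exon, and its copy Ccl27b, with 77 counts in PreASKO and 119 in floxed cells, had a ratio of 0.836 (0.620 to 1.12), so the reads of these genes may not be fully separable. For Ccl25, a gut and thymus chemokine with 94 counts in PreASKO and 132 in floxed cells, the summed ratio of 0.920 (0.699 to 1.21) joined raw counts with a ratio of 0.470 and repeat-distributed counts with a ratio of 1.37.

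The constitutive stromal ligand Cxcl12, or SDF-1, which retains haematopoietic cells and progenitors, had 326 counts or 11.2 CPM in PreASKO cells and 753 counts or 20.0 CPM in floxed cells. Its ratio was 0.560 (0.490 to 0.638), and raw and repeat-distributed counts gave 0.612 and 0.539. The ratio of Cxcl12 lay within the wide range of the 12 stromal markers, from 0.275 to 0.850. The part of stromal cells in it was not tested. Cxcl14, a chemokine of epithelia and stroma, had 46 counts in PreASKO and 63 in floxed cells. Its ratio was 0.944, with a wide interval that includes equal levels (0.631 to 1.40). Cxcl17, a mucosal chemokine, had 32 counts in PreASKO and 11 in floxed cells, a ratio of 3.76 (1.85 to 8.27). Of the ligands tethered to the membrane, Cx3cl1 or fractalkine, an adhesion ligand of endothelium and other barrier cells, had 111 counts or 3.80 CPM in PreASKO cells and 274 counts or 7.27 CPM in floxed cells. Its ratio was 0.524 (0.416 to 0.655). Mesothelial markers were lower in 9 of 9, summing to 4.94 CPM in PreASKO and 177 CPM in floxed cells, with Upk1b at 0 in PreASKO, and the 8 endothelial markers had ratios from 0.655 to 1.70. The part of these cells in the Cx3cl1 ratio was not tested. Cxcl16, a scavenger receptor for oxidised lipoprotein as well as a Cxcr6 ligand, stood at 77.8 CPM in PreASKO and 65.1 CPM in floxed cells, a ratio of 1.20 (1.13 to 1.27). Of its annotated exon, 20.5% overlaps Zmynd15 on the opposite strand.

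CC receptor genes lay on both sides of equality. Ccr2, the receptor that marks recruited monocytes, had 376 counts or 12.9 CPM in PreASKO cells and 319 counts or 8.46 CPM in floxed cells, a ratio of 1.52 (1.31 to 1.77). Ccr8, found on regulatory and skin-homing T cells, had 109 counts in PreASKO and 84 in floxed cells, a ratio of 1.68 (1.25 to 2.26). Ccr7, which brings dendritic cells and naive T cells to lymph nodes, stood at 22.7 CPM in PreASKO and 19.4 CPM in floxed cells, a ratio of 1.17 (1.05 to 1.30). Its raw counts, 35 in PreASKO and 32 in floxed cells, gave a ratio of 1.46 and its repeat-distributed counts one of 1.12. Ccr1, a receptor of Ccl3, Ccl5, Ccl6 and Ccl9, differed in the other direction. It stood at 12.6 CPM in PreASKO and 15.4 CPM in floxed cells, a ratio of 0.821 (0.719 to 0.938). Ccr6, a receptor of B cells and some T cells, was near equal at 7.30 CPM in PreASKO and 7.53 CPM in floxed cells.

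The remaining CC receptors were scarce. Ccr9, the gut-homing receptor, had 6 counts in PreASKO and 50 in floxed cells, a ratio of 0.155 (0.0543 to 0.362), the furthest below equality of any member. Its exons overlap those of a lincRNA gene on the same strand by 269 bp. Ccr10 had 24 counts in PreASKO and 53 in floxed cells, a ratio of 0.585 (0.346 to 0.965), Ccr3 had 21 in PreASKO and 22 in floxed cells, and Ccr4 had 13 in PreASKO and 6 in floxed cells, a ratio of 2.80 (0.993 to 8.98). For Ccr3 and Ccr4 no difference was detectable at this depth, as their intervals include equal levels.

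Of the CXC and CX3C receptors, Cxcr4, the receptor of Cxcl12 on most leukocytes and many progenitors, had 2197 counts or 75.3 CPM in PreASKO cells and 2229 counts or 59.1 CPM in floxed cells, a ratio of 1.27 (1.20 to 1.35). Cx3cr1, which marks monocytes and some resident macrophages, stood at 16.9 CPM in PreASKO and 15.2 CPM in floxed cells, a ratio of 1.11 (0.983 to 1.25). Its raw counts, 68 in PreASKO and 64 in floxed cells, gave a ratio of 1.41 and its repeat-distributed counts one of 1.05. Cxcr5, the follicular homing receptor of B cells, had 61 counts in PreASKO and 126 in floxed cells, a ratio of 0.626 (0.453 to 0.856). The B cell markers Cd79a and Ms4a1 had ratios of 1.18 and 0.650, so markers of that lineage were not of 1 direction. Cxcr6, a receptor of tissue-resident T cells, had 114 counts in PreASKO and 175 in floxed cells, with a ratio of 0.842 (0.659 to 1.07).

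Ligands and receptors of a pair lay on the same side of equality in some cases and on opposite sides in others. Cxcr4 was higher in PreASKO while Cxcl12 was lower, and the same held for Cx3cr1 and Cx3cl1, although the interval of Cx3cr1 includes equal levels. Conversely Ccr1 was lower while its ligands Ccl3, Ccl5, Ccl6 and Ccl9 were higher. Ccr2 and 3 of the 4 ligands grouped with it were higher. Cxcr3 and Cxcr6 were also on the other side of equality from their ligands, though the intervals of both receptors include equal levels. Ccr8 was higher together with Ccl8, a ligand of that receptor in mice, and Ccr7 together with its 3 ligands, whose intervals include equal levels. Ccr10 was lower together with Ccl27a and Ccl27b, Ccr9 together with Ccl25, and Ccr6 together with Ccl20. The intervals of Ccl27b, Ccl25, Ccr6 and Ccl20 include equal levels. The ligands of Ccr3 and of Ccr4 lay on both sides. These are descriptions of the same 2 libraries, with no test of a pairing.

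Most members lie in chromosomal clusters, and neighbours were alike in some of these and not in others. With members less than 500 kb apart taken as a cluster, there were 9 of them. On chromosome 11 the MIP cluster (Ccl5, Ccl9, Ccl6, Ccl3 and Ccl4, from 83525778 to 83664683 in GRCm38) had 5 of 5 genes higher. The MCP cluster of the same chromosome (82035571 to 82116799) holds Ccl2, Ccl7, Ccl11, Ccl12 and Ccl8 in this order, and their ratios were 0.909, 1.11, 0.625, 1.38 and 1.66. Ccl11 thus lay between neighbours that were both higher. On chromosome 8, Cx3cl1 at 0.524 lies between Ccl22 at 1.07 and Ccl17 at 0.782. On chromosome 5, Cxcl9 and Cxcl10 (92321347 to 92348889) were both higher, as were Ccl26 and Ccl24 (135560448 to 135573049). In a receptor cluster of chromosome 9, Ccr2 and Ccr3 were higher and Ccr9, Cxcr6 and Ccr1 lower.

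**Figure D4:**
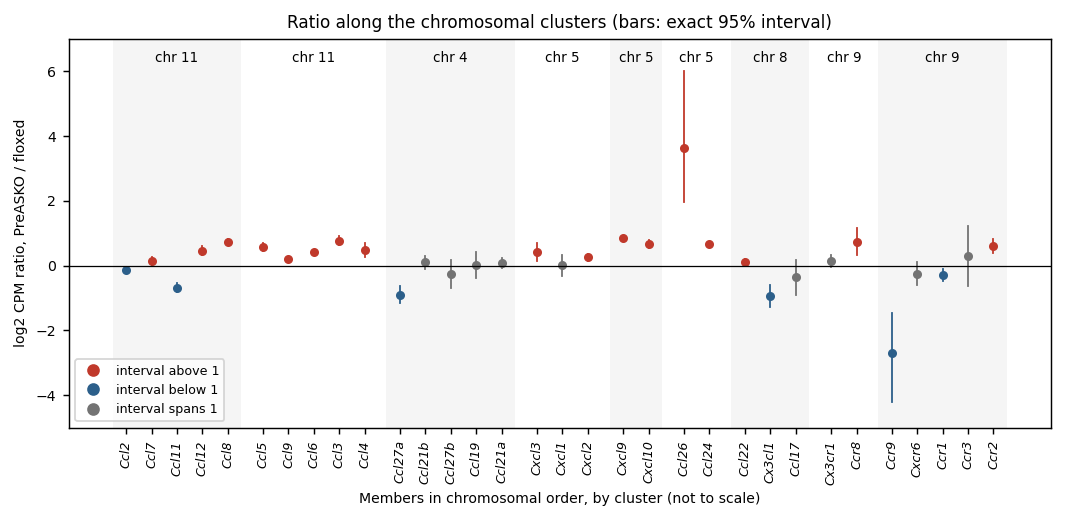
Log2 CPM ratio, PreASKO over floxed, with exact 95% intervals, for members in chromosomal order within 9 clusters (shaded and unshaded bands, not to scale). All 5 genes of the second chromosome 11 cluster lie above 0, while the first, with Ccl2 and Ccl11 below 0, and the chromosome 9 receptor cluster hold genes on both sides.

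Genes around the chemokine system but outside the symbol rule gave a mixed picture as well. Pf4, platelet factor 4, which is also abundant in resident macrophages, exceeded every member in counts, with 2630 CPM in PreASKO and 1337 CPM in floxed cells and a ratio of 1.97 (1.95 to 1.99). Cmklr1, the chemerin receptor gene, had a ratio of 1.65 (1.61 to 1.70), while Rarres2, which encodes chemerin and is expressed in stroma and adipocytes, had one of 0.652 (0.631 to 0.674). Scavenging receptors were lower. Ackr3, which clears Cxcl12, stood at 75.8 CPM in PreASKO and 125 CPM in floxed cells, a ratio of 0.608 (0.578 to 0.640). Ackr2, which clears inflammatory CC chemokines, had 43 counts in PreASKO and 145 in floxed cells, a ratio of 0.383 (0.266 to 0.542), and Ackr4 and Ackr1 had ratios of 0.858 and 0.863. Of the 11 such genes past the filter, 4 were higher and 7 lower, none past 2-fold on the log2(CPM + 1) scale.

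Of 27 table entries for the signalling and desensitisation of chemokine receptors, 24 stood higher in PreASKO, against 8658 of all 18911 genes past the filter. The list's median log2 fold was 0.41. Rac2, a leukocyte GTPase of cell migration, had a ratio of 1.65 and Arrb2, the arrestin that desensitises these receptors, one of 1.63. Pik3r5, a regulatory subunit of the leukocyte phosphoinositide 3-kinase, had a ratio of 2.09, while its catalytic partner Pik3cg was at 0.889. The NF-kappaB list, 13 of 18 higher, had a median of 0.10. Il1b was past 2-fold, with 408 counts in PreASKO and 201 in floxed cells. Tnfaip3, a feedback inhibitor, had a ratio of 1.42, and Nfkbia, which encodes the main inhibitor, one of 1.01. Intervals of the 18 lay wholly above equal levels for 9 and wholly below for 4. The 4 were Il6 (0.646), Nfkbie (0.764), Bcl3 (0.768) and Relb (0.849). Many genes of the signalling list are expressed by leukocytes, whose part in the ratios of this list was not tested. The macrophage list had a median of 0.50. By comparison, markers of dendritic, B, and T and NK cells had medians of 0.14, 0.11 and -0.02, and eosinophil and mast cell markers one of 0.12. Of the 10 genes of the T and NK list, 5 were higher and 5 lower in PreASKO. Among them Cd3d and Lck had ratios of 1.75 and 1.63 and Cd3g one of 0.657. Gzma had 0 counts in PreASKO and 42 in floxed cells.

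**Figure D5:**
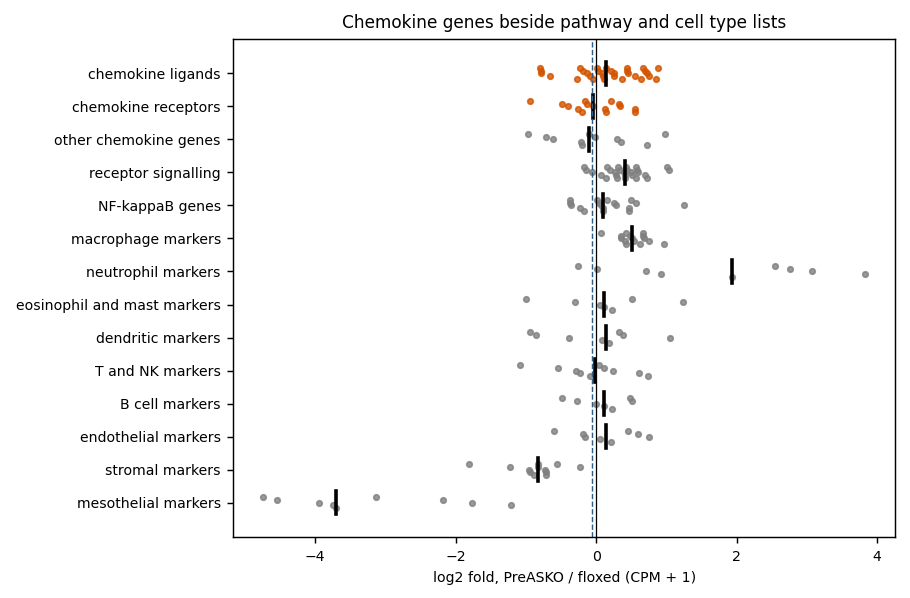
Log2 fold on the log2(CPM + 1) scale, PreASKO over floxed, for each gene past the count filter (points) of the chemokine ligands, the chemokine receptors and 12 further lists. Black bars are list medians, and the dashed line is the median of all genes, -0.06. Ligands spread from -0.80 to 0.89, overlapping the values of both the stromal and the macrophage markers.

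Of the 46 members, 23 had ratios within the range of the 15 macrophage markers, among them 17 ligands and 6 receptors. A further 10, of which 6 were ligands and 4 receptors, had ratios within the range of the 12 stromal markers. These 2 ranges are wide, from 1.05 to 1.96 and from 0.275 to 0.850. Other lists held more members in their ranges, 36 for the 9 neutrophil markers and 33 for the 8 endothelial markers. The range of the 27 receptor signalling entries held 31. Lying within a range thus does not assign a member to a cell type. The share of all genes within each range was not computed, and the counts are a description. The part of any cell type in the chemokine ratios was not tested.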

How the data were processed

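The data were 1 polyA RNA-seq library of pooled GFP+ cells per genotype, PreASKO and floxed. The authors deposited a table in which each gene has, for each library, raw counts beside repeat-distributed ones. The repeat-distributed values are estimated counts, per the file headers, and 99.7% of them lie within 0.01 of a whole number. They made up 50.6% of PreASKO and 49.1% of floxed counts. How they were made is not documented. Of the 46 members past the filter, 25 had raw counts alone, 10 repeat-distributed counts alone and 11 both. The authors also deposited a fold ratio, PreASKO over floxed, and its log2. For 42 of 46 members that log2 fold lay within 0.01 of the log2 ratio computed here. The submitters' processing notes name the build mm10. The aligner is not given in the sources used here, nor is the counter.

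Both counts were summed, rounded and scaled to the library total. The pseudocount was 1 CPM and the filter 10 counts in at least 1 library. A count of 0 was set to 3 counts for limits of fold. With 1 library per genotype no test was possible, so no p-values were computed. Intervals are exact conditional (Clopper-Pearson) for ratios and exact Poisson for levels, at 95%. They cover counting error only, since each genotype has 1 library, and they take every count as a separate molecule. The labels name no molecular identifiers and the repeat-distributed values are estimates, so the counting error may be larger. Alternatives were TMM scaling (edgeR 4.0.16), median-of-ratios scaling (DESeq2 1.42.0), other pseudocounts and filters, each kind of count alone and the authors' fold. Exon lengths and positions came from GENCODE M21, which may differ from the authors' annotation. The calculation was tested on simulated data. Python 3.11.15, numpy 2.4.6, scipy 1.17.1, pandas 2.3.3 and R 4.3.3 were used. Every member with 10 or more counts was to be named, in groups by role. The members, role lists, pathway lists and marker lists were chosen with earlier results of these data known. Some genes of these families are not reported here, though counts and sums over the members may include them.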

Additional observations from a re-analysis of the deposited data

How the results depend on the processing

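With TMM or median-of-ratios scaling the count of members past 2-fold on the log2 scale stayed at 0 in both directions, and the members' median log2 fold was 0.14 under each. A pseudocount of 5, no filter or a filter of 100 counts also left the counts at 0. A pseudocount of 0.1, the authors' deposited fold and the absence of a pseudocount each gave 3 higher and 2 lower, and the limit of 1.5-fold at 100 or more counts gave 7 higher and 5 lower; leaving out the pseudocount and this limit were chosen after seeing the data. Raw counts alone gave 2 higher and 1 lower of 32 members and a median log2 fold of 0.22. Repeat-distributed counts alone gave 0 higher and 1 lower of 21 members. Here the median log2 fold was -0.084 and the median ratio 0.940, on the other side of equality from the 0.11 and 1.09 of the summed counts. This setting changes the genes, their counts and the library totals at once, and the part of each was not tested. Single ratios stayed on their side of equality under each of these settings, except that of Ccl25 with repeat-distributed counts alone. With 1 library per genotype leaving out a replicate was not possible. Depth limits the members with few counts. No paired analysis was possible because each genotype has 1 library.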
